A study of Mus musculus with 18 samples.

Results

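Cyp11a1, Star, Fdx1, Fdxr and Nr5a2 are genes of the first, mitochondrial step of steroid synthesis and of its transcriptional control, followed here in F9 cells given retinoids. They were chosen by gene symbol. The choice was made with the deposited levels known, because Cyp11a1 was high on arrays of 2 retinoids (BMS961 and BMS753). Of the 5 genes, 4 had a probe set listed under 1 symbol and were among the 19938 genes compared. Fdxr had none and was not analysed here. F9 cells come from a mouse teratocarcinoma, and retinoic acid, the ligand of the retinoic acid receptors (RAR), makes them differentiate. Affymetrix whole-transcript arrays, 18 in all, gave log2 levels per probe set of total RNA. The groups were all-trans retinoic acid (ATRA) at 1 µM, the RARγ agonist BMS961 at 0.1 µM, the RARα agonist BMS753 at 1 µM and the RARβ agonist BMS641 at 1 µM, each with 1 array at 2, 6, 24 and 48 h, and ethanol vehicle (EtOH) with 2 arrays at 48 h. All groups shared the cell line, a serum-containing medium and gelatine-coated plates. The vehicle has no earlier time, so 2, 6 and 24 h arrays also differ from it in time in culture.

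Steroid hormones are made from cholesterol inside mitochondria. Star carries cholesterol to the inner mitochondrial membrane. There Cyp11a1, the side-chain cleavage P450, cuts it to pregnenolone, the precursor of all steroid hormones. The P450 needs electrons, which the flavoprotein Fdxr takes from NADPH and the small iron-sulfur protein Fdx1 passes on. Nr5a2, known as the liver receptor homolog, is a nuclear receptor that activates steroidogenic genes in the ovary and also acts in pluripotent cells. Its relative Nr5a1, steroidogenic factor, has that role in adrenal gland and gonads.

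Promoter windows of Cyp11a1 and Fdx1 are shown first because the regulators described later bind such sequences. They are the 250 bases before listed gene starts, from RefSeq on GRCm38.p6. RefSeq listed 2 starts for Cyp11a1. Letters in capitals mark matches on either strand to CAAGGNC, which NR5A receptors bind, to AGGTCA, an element of nuclear receptor sites, or to GATAAG, which GATA factors bind. The first Cyp11a1 window is chr9:57997774-57998023 on the plus strand, the second chr9:58014702-58014951 on the plus strand, and the Fdx1 window chr9:51963603-51963852 on the minus strand.
Cyp11a1, first start: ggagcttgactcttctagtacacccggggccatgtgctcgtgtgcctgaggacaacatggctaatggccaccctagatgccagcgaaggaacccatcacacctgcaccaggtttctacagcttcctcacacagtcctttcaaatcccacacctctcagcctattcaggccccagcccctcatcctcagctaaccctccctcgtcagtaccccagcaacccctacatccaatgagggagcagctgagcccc
Cyp11a1, second start: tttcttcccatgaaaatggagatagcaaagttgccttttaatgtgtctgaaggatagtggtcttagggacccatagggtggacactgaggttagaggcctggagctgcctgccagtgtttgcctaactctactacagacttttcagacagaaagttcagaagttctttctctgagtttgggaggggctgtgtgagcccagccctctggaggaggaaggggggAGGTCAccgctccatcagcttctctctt
Fdx1: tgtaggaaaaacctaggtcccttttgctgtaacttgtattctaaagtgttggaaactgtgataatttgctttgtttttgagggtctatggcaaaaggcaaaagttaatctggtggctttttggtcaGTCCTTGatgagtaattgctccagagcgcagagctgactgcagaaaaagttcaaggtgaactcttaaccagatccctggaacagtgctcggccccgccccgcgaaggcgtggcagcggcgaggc

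The window at the second Cyp11a1 start held AGGTCA 28 to 23 bases before the start, on the gene's strand. The window at the first start held none of the motifs. In the Fdx1 window CAAGGNC lay on the opposite strand, 124 to 118 bases before the start. Among 32851 windows of the same length, 15.0% held CAAGGNC, 14% held AGGTCA and 6.55% held GATAAG. The Fdxr window held CAAGGNC and GATAAG, 141 to 135 and 176 to 171 bases before the start. Of the 2 Nr5a2 windows, 1 held AGGTCA at 64 to 59 bases and GATAAG at 201 to 196 and 165 to 160 bases. A pair of AGGTCA in the same direction with 2 or 5 bases between them is the form of many RAR sites. None of the windows of Cyp11a1, Fdx1, Fdxr and Nr5a2 held such a pair, and no window of Star was searched. Of all windows 0.00913% held it for each spacing, so its absence is the rule. A match is only a run of letters, and its absence says nothing about sites elsewhere.

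The array medians lay between 5.31 and 5.47 and precision is limited by how few arrays there are. All 9 markers of embryonal carcinoma cells were measured, among them Pou5f1, Sox2 and Nanog, and their mean level was 10.43 to 11.33 on every array. Of the markers of steroid-secreting gonadal and adrenal cells, 8 of 10 were measured. Their mean, Nr5a1 included, was 4.50 to 4.82 on every array. Between the vehicle arrays the median absolute difference was 0.23 log2 units, and 665 genes were at least 2-fold apart. Over 12146 probe sets with no listed gene, the deviations of vehicle replicate 1 had a mean r of 0.322 with those of ATRA and -0.189 with those of the BMS compounds. The means of vehicle replicate 2 were -0.262 for ATRA and 0.037 for the BMS compounds. A technical difference between these array sets and the effect of ATRA cannot be told apart where ATRA is compared with a BMS compound. Where a fit blocked on the array set changes a call described here, its value is given as well. The labels name no such sets, so the block rests on these correlations. It compares ATRA with vehicle replicate 1 alone, and BMS compounds with vehicle replicate 2 alone. A blocked difference between ATRA and a BMS compound thus runs through the difference between the single vehicle arrays. A call lost there says little about the difference itself.

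Cyp11a1 was high on all ATRA arrays and on the 24 and 48 h arrays of BMS961 and BMS753. Its ATRA levels were 8.11 at 2 h, 7.92 at 6 h, 7.35 at 24 h and 7.59 at 48 h. With BMS961 they were 5.92, 6.66, 8.78 and 8.5 at the same times. BMS753 gave 5.48, 5.87, 7.40 and 7.83, and BMS641 gave 5.66, 5.73, 6.42 and 6.60, against 6.04 and 5.75 on the vehicle arrays. The ATRA levels were thus highest at the first time measured, whereas those of the 3 BMS compounds were higher at both late times than at both early ones. The highest level was on the BMS961 array at 24 h and the lowest on the BMS753 array at 2 h, with 3.30 between them. In the order of the 18 levels, 3 of the 17 gaps between neighbours exceeded the 0.29 that separated the vehicle arrays. These gaps lay between BMS961 at 48 h and ATRA at 2 h (0.39), between ATRA at 24 h and BMS961 at 6 h (0.69), and between BMS641 at 24 h and vehicle replicate 1 (0.38). Neighbours within the blocks so formed were no further apart than the vehicle pair.

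**Figure D1:**
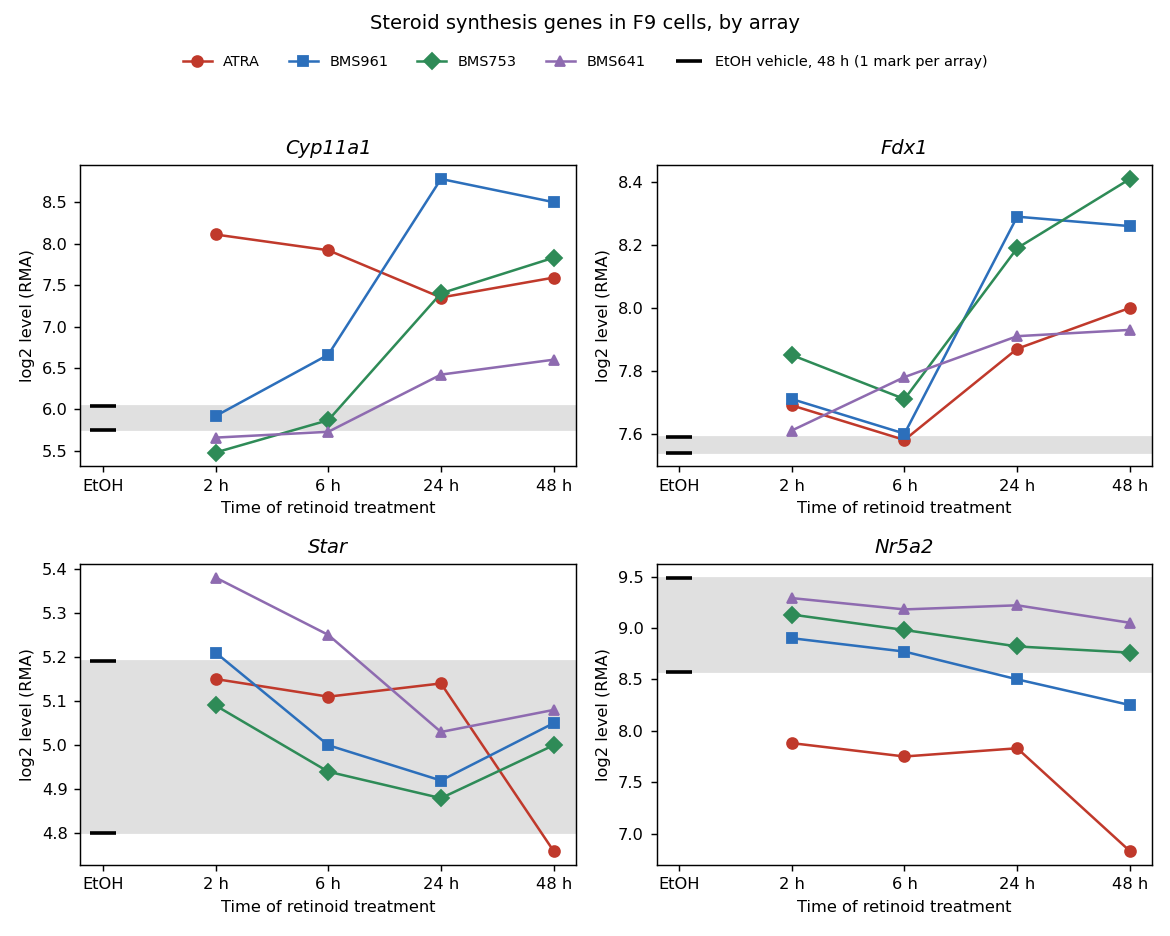
Log2 level of Cyp11a1, Star, Fdx1 and Nr5a2 by array (y axis) against the time of retinoid treatment (x axis), with 1 point per array, lines joining the times of a retinoid and a grey band between the vehicle arrays at 48 h. Cyp11a1 reaches 8.78 with BMS961 at 24 h, Star stays between 4.76 and 5.38, Fdx1 reaches 8.41 with BMS753 at 48 h, and Nr5a2 is lowest, at 6.83, with ATRA at 48 h.

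Against both vehicle arrays, Cyp11a1 was at least 2-fold higher on 8 of the 16 retinoid arrays: all 4 of ATRA, and the 24 h and 48 h arrays of BMS961 and BMS753. The smaller of the pair of differences for each array is given here. With ATRA the level was higher by 2.07 at 2 h, where 0.456% of all genes were at least 2-fold above both vehicle arrays, and by 1.87 at 6 h (0.406%). The ATRA differences at 24 and 48 h were 1.31 and 1.55, with 0.532% and 3.26% of genes past that fold. BMS961 gave 2.74 at 24 h (6.70-fold, with 0.466% of genes past 2-fold) and 2.46 at 48 h (1.01%). BMS753 gave 1.36 at 24 h (0.0953%) and 1.78 at 48 h (0.251%). BMS641 stayed under 2-fold at every time, with differences of 0.38 and 0.56 from vehicle replicate 1 at 24 and 48 h. These comparisons chose the gene, so the shares are set beside it without a reading. At 2 h BMS961, BMS753 and BMS641 lay -0.13, -0.56 and -0.38 from vehicle replicate 1, and 0.16, -0.27 and -0.09 from replicate 2. Past 2-fold above both vehicle arrays at both 24 and 48 h were 69 genes with ATRA (0.346%), 72 with BMS961 (0.361%) and 13 with BMS753 (0.0652%), each time including Cyp11a1, and 1 gene with BMS641 (0.00502%).

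Set beside BMS641 at the same time, Cyp11a1 with ATRA was higher by 2.45 at 2 h (1.12% of genes past 2-fold), 2.18 at 6 h (1.35%), 0.93 at 24 h and 0.98 at 48 h. With BMS753, also at 1 µM, it differed by -0.18, 0.14, 0.99 and 1.22. With BMS961, at 0.1 µM against 1 µM of BMS641 and so not at a matched dose, it differed by 0.26, 0.92, 2.37 and 1.90. The ATRA difference was thus largest at the early times and those of BMS961 and BMS753 at the late times. At 24 h the BMS753 value was just under 2-fold, where 0.211% of genes were higher by 2-fold or more. Past 2-fold at 48 h were 0.441% of genes with BMS753 and 1.61% with BMS961, and at 24 h 0.767% with BMS961.

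**Figure D2:**
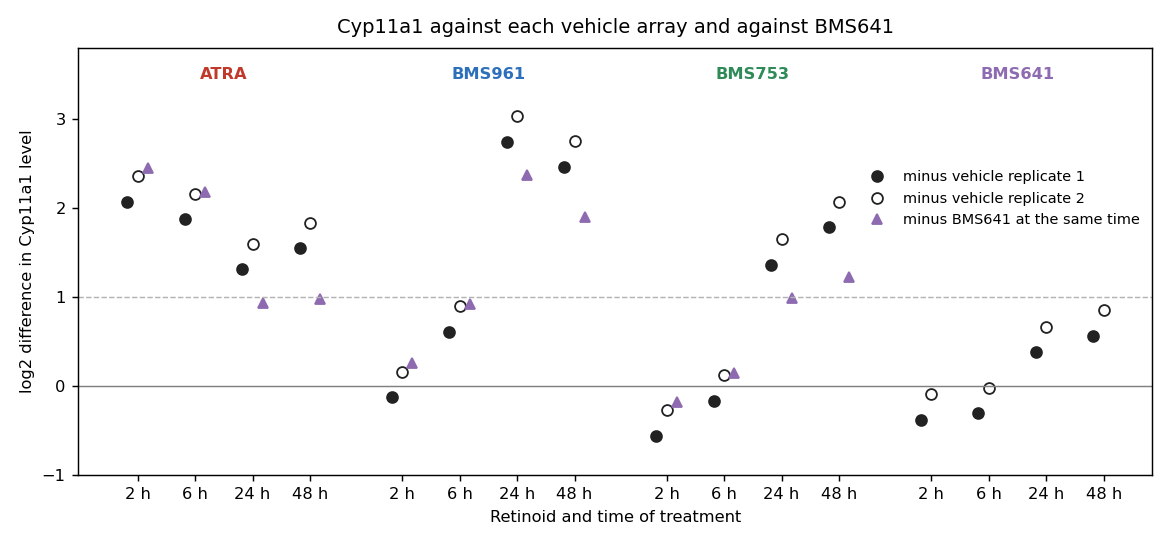
Difference in log2 level of Cyp11a1 (y axis) on each retinoid array from vehicle replicate 1, from vehicle replicate 2 and from BMS641 at the same time (marks), by retinoid and time (x axis), with a line at 2-fold. All 4 ATRA arrays and the late BMS961 and BMS753 arrays lie past 2-fold above both vehicle arrays, and no BMS641 array does.

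The times were also joined, 2 and 6 h as early and 24 and 48 h as late, in 1 limma fit over all 18 arrays. Its p-values rest on the vehicle pair, which the labels do not place in separate cultures, and on departures of the retinoids from steps common to all of them, so they say nothing of how repeated cultures would vary. For Cyp11a1 the fitted values are a description with no test. Late minus vehicle it was 2.75 ± 0.21 (SE) with BMS961, or 6.71-fold, 1.72 ± 0.21 with BMS753, 1.57 ± 0.21 with ATRA and 0.61 ± 0.21 with BMS641. Early, ATRA gave 2.12 ± 0.21 over vehicle, BMS961 0.39 ± 0.21, BMS753 -0.22 ± 0.21 and BMS641 -0.20 ± 0.21. Without either late BMS961 array in turn, the BMS961 value lay between 2.46 and 3.03. In bulk RNA, fewer cells of a type and less RNA per cell cannot be told apart.

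Markers of other cell types also differed on some of these arrays. The mean level of 10 parietal endoderm markers, such as Lama1 and Col4a1, was 7.46 to 9.58 on late ATRA arrays, 7.27 to 8.57 on late BMS961 arrays, 6.89 to 7.28 on late BMS753 arrays and 6.83 to 6.92 on late BMS641 arrays. On the early ATRA arrays, where Cyp11a1 was already high, that mean was 6.90 to 7.51, against 6.80 to 7.5 on the vehicle arrays. Embryonal carcinoma markers averaged 10.43 to 10.67 on late ATRA arrays, 10.58 to 10.86 on late BMS961 arrays and 11.11 to 11.20 on late BMS753 arrays, against 11.04 to 11.33 on the vehicle arrays. Late against vehicle, limma called 2 of 10 parietal endoderm markers higher and 5 of 9 embryonal carcinoma markers lower with ATRA, and 1 of the 9 lower with BMS961. Over all genes 3.31% were called higher and 1.4% lower with ATRA, and 0.446% lower with BMS961. Blocked on the array set, 0 of the parietal endoderm markers and 3 of the embryonal carcinoma markers were called with ATRA. With BMS961 the block called 1 parietal endoderm marker higher, and 1 embryonal carcinoma marker higher and 2 lower. With BMS753 it called 1 embryonal carcinoma marker higher. The share of all genes called was not counted for the blocked fit, so its counts stand without a reading. The 6 of 10 trophoblast giant cell markers that were measured averaged 4.57 to 4.87 on every array, and 10 visceral endoderm markers 4.85 to 5.63. The part of these markers in the levels of the members was not tested.

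Fdx1, the electron donor of Cyp11a1, was also higher at late times, by less than 2-fold. With ATRA its levels at 2, 6, 24 and 48 h were 7.69, 7.58, 7.87 and 8.0. BMS961 gave 7.71, 7.6, 8.29 and 8.26, BMS753 7.85, 7.71, 8.19 and 8.41, and BMS641 7.61, 7.78, 7.91 and 7.93, against 7.54 and 7.59 on the vehicle arrays. All late arrays of the 4 retinoids lay above both vehicle arrays, which were 0.05 apart. Both late arrays lay above both vehicle arrays for 17.8% of all genes with ATRA, 17.0% with BMS961, 19.9% with BMS753, and for 18.7% with BMS641, so that position alone is common. Late minus vehicle, Fdx1 was 0.71 ± 0.12 (1.63-fold) with BMS961 and 0.73 ± 0.12 (1.66-fold) with BMS753, both given as descriptions. ATRA gave 0.37 ± 0.12 (limma, adjusted p = 0.103) and BMS641 0.35 ± 0.12 (adjusted p = 0.995), and neither passed the threshold of 0.05 after adjustment over all genes. Early with ATRA, Fdx1 differed from vehicle by 0.07 ± 0.12 (adjusted p = 0.943), while Cyp11a1 differed by 2.12. Fdx1 and Cyp11a1 thus both lay above both vehicle arrays on the late arrays of all 4 retinoids. The early ATRA arrays had Cyp11a1 high, with Fdx1 at 7.69 and 7.58, close to vehicle.

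Star, the cholesterol carrier, varied little, with a range of 0.63 over the 18 arrays and a highest level of 5.38. ATRA gave 5.15, 5.11, 5.14 and 4.76 at 2, 6, 24 and 48 h, and BMS961 gave 5.21, 5.0, 4.92 and 5.05. With BMS753 the levels were 5.09, 4.94, 4.88 and 5.0, and with BMS641 5.38, 5.25, 5.03 and 5.08, against 5.19 and 4.80 on the vehicle arrays. Of the 16 retinoid arrays, 12 lay between the vehicle arrays. Late minus vehicle, Star differed by -0.05 with ATRA (95% interval -0.39 to 0.30, adjusted p = 0.923) and by 0.06 with BMS641 (-0.29 to 0.40, adjusted p = 0.998). With BMS961 and BMS753 the differences were -0.01 ± 0.16 and -0.05 ± 0.16. Changes within these intervals were not detectable with these arrays, and without detection calls it cannot be said whether the probe set was above background.

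Nr5a2, the nuclear receptor, was lowest with ATRA. Its ATRA levels were 7.88, 7.75, 7.83 and 6.83 at 2, 6, 24 and 48 h. BMS961 gave 8.90, 8.77, 8.5 and 8.25, BMS753 9.13, 8.98, 8.82 and 8.76, and BMS641 9.29, 9.18, 9.22 and 9.05, against 8.57 and 9.49 on the vehicle arrays. The vehicle arrays were 0.93 apart, and 10 of the 16 retinoid arrays lay between them. All 4 ATRA arrays lay below both, as did the late BMS961 arrays (both late arrays below for 19.3% of all genes with ATRA and 15.0% with BMS961), and only the ATRA array at 48 h was at least 2-fold below both (0.582% of all genes at that time). Late ATRA minus vehicle was -1.71 ± 0.27, or 3.26-fold lower (limma, adjusted p = 0.00661), in a comparison that called 1.4% of all genes lower. Blocked on the array set, the value was -1.24 (adjusted p = 0.0342), and without the 48 h ATRA array it was -1.29 and no longer passed (adjusted p = 0.0767). Early ATRA minus vehicle was -1.22 ± 0.27 (adjusted p = 0.0522), short of the threshold. BMS641 late differed by 0.10 ± 0.27 (adjusted p = 0.998), and the described values of BMS961 and BMS753 late were -0.66 ± 0.27 and -0.24 ± 0.27. Cyp11a1 was high on ATRA and late BMS961 arrays, where Nr5a2 lay below the vehicle range, and on late BMS753 arrays, where Nr5a2 lay inside it. Set beside BMS641 at the same time, Nr5a2 with BMS753 differed by -0.16, -0.2, -0.4 and -0.28 at 2, 6, 24 and 48 h. A relation between the levels of these 2 genes was not tested.

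ATRA, BMS753 and BMS641 were given at the same dose, which allows 2 tested pairs, ATRA against each of the others, for Fdx1, Star and Nr5a2. The pair with BMS753 draws on arrays that entered the choice of the genes. Late, Nr5a2 was lower with ATRA than with BMS641 (-1.80 ± 0.27, adjusted p = 0.00295), where 6.98% of all genes were called lower, and than with BMS753 (-1.47 ± 0.27, adjusted p = 0.0118), where 4.18% were. Neither call was kept when blocked on the array set, at -0.88 (adjusted p = 0.607) and -0.54 (adjusted p = 0.826). That contrast runs through the single vehicle arrays, so the lost calls do not decide whether the differences are technical. The call against BMS641 was also lost without the 48 h BMS641 array (adjusted p = 0.0676). That against BMS753 was lost without the 48 h ATRA array (adjusted p = 0.0942) and without the 24 h or the 48 h BMS753 array (0.0708 and 0.182). Fdx1 late was -0.36 with ATRA minus BMS753 (95% interval -0.63 to -0.10, adjusted p = 0.083) and 0.02 with ATRA minus BMS641 (-0.24 to 0.28, adjusted p = 0.951). With arrays centred on their medians the first of these passed, at -0.52 (adjusted p = 0.0316). Star late differed by 0.01 (-0.34 to 0.35) and -0.11 (-0.45 to 0.24) for these pairs (adjusted p = 0.981 and 0.731). Cyp11a1, described only, was 2.34 higher early and differed by -0.15 late with ATRA minus BMS753.

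Beyond the members, 4 lists of pathway genes held 68 genes, of which 58 were measured. The lists were chosen with earlier results of these data known, so shares are set side by side without a reading. Late against vehicle, limma called 3 of them with BMS961 (5.17%, against 1.26% of all genes), 1 with BMS753 (1.72%, against 0.186%), 5 with ATRA (8.62%, against 4.71%) and 0 with BMS641. For BMS641, 6 of the 58 and 916 of all genes had an unadjusted p under 0.05, and none of all genes was called. Median log2 differences of the 58 were 0.07 (ATRA), 0.05 (BMS961), -0.01 (BMS753) and 0.04 (BMS641), beside -0.02, 0.01, 0.01 and 0.02 over all genes. The called genes were Gata6, Nr5a1 and Lipe with BMS961, Lipe with BMS753, and Gata6, Gata4, Zfpm1, Nr5a1 and Npc1 with ATRA.

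The enzymes that act after pregnenolone were measured for 16 of 20 genes. In the fit without a block, limma called none of them late against vehicle with any retinoid. At unadjusted p under 0.05 were 2, 1, 1 and 1 with BMS961, BMS753, ATRA and BMS641, beside 2307, 1741, 3938 and 916 of all 19938 genes. Blocked on the array set, 1 was called, Akr1c18 with BMS961. Cyp17a1, which makes androgen precursors, was at 4.35 to 4.72 on every array, with a late difference of -0.11 with BMS961 (adjusted p = 0.884). Hsd3b1, which turns pregnenolone into progesterone, differed by -0.03 with BMS961 and by 0.03 with ATRA (adjusted p = 0.983 and 0.938). The largest late differences of the list were those of Akr1c18, which inactivates progesterone, at -0.90 with BMS961 and -0.91 with ATRA (adjusted p = 0.449 and 0.259; blocked on the array set -1.61 and -0.20, adjusted p = 0.0422 and 0.883), and of Hsd17b7, which also serves cholesterol synthesis, at 0.70 with BMS961 and 0.73 with BMS753 (adjusted p = 0.372 and 0.509). Both genes differed by over 1 log2 unit between the vehicle arrays, with 4.34 and 5.76 for Akr1c18 and 7.48 and 8.68 for Hsd17b7. The 5 measured partners of P450 enzymes, of 8 listed, held no call late against vehicle. At unadjusted p under 0.05 they were 2 with ATRA, beside 3938 of all genes, and 0 with each BMS compound. The largest was Cyp27a1, a mitochondrial sterol hydroxylase that uses the same electron chain as Cyp11a1, at 0.74 with late ATRA (adjusted p = 0.133).

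**Figure D3:**
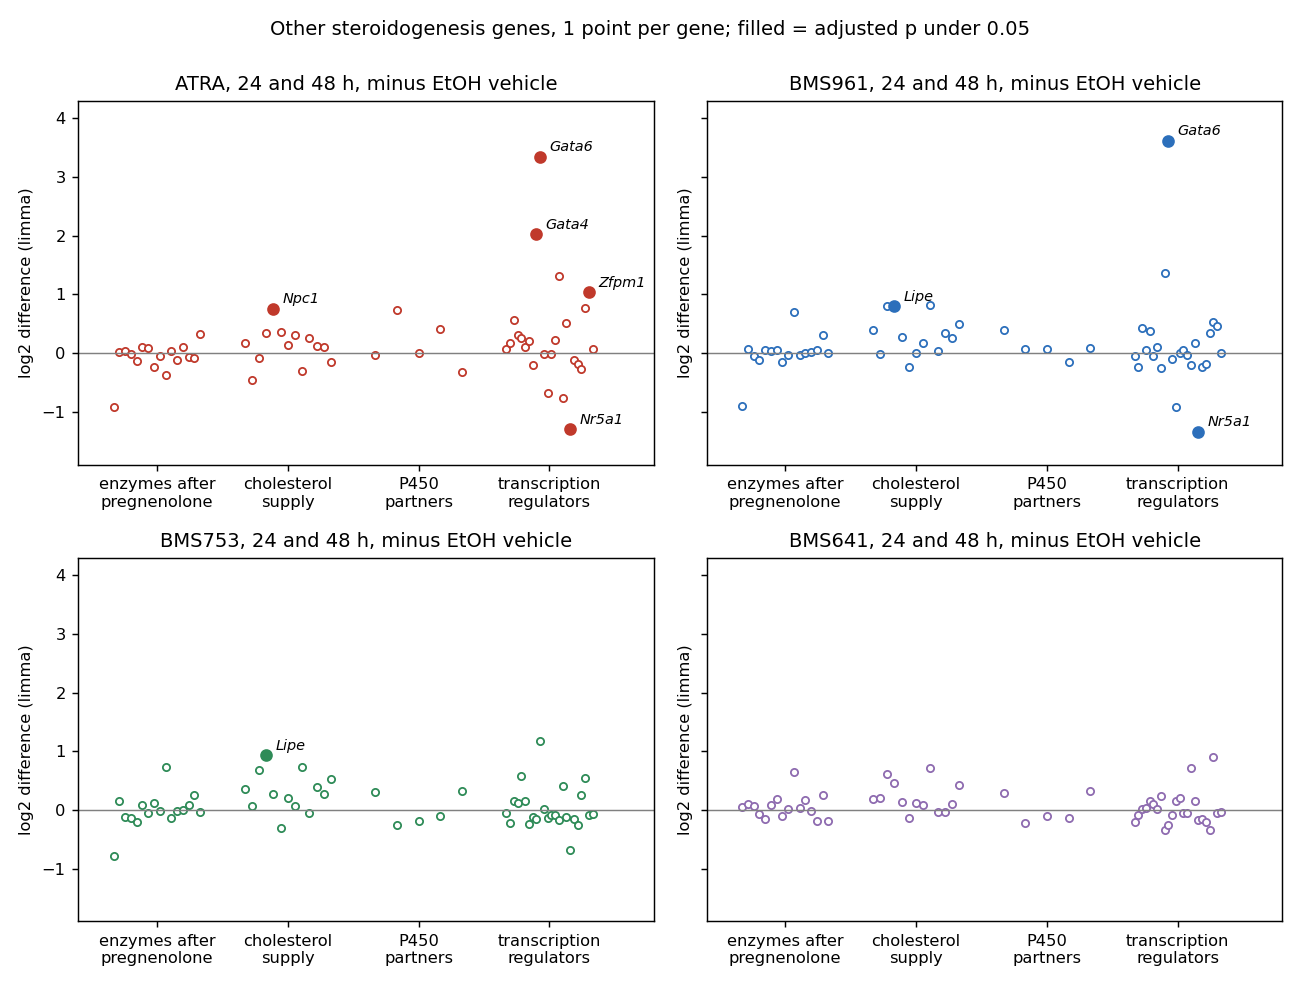
Late minus vehicle log2 difference (y axis) of each measured gene of the 4 pathway lists (columns of points), in a panel for each retinoid, with filled points for genes called by limma at adjusted p under 0.05. No enzyme acting after pregnenolone is called in any panel (fit without a block), and Gata6 is the highest point with ATRA (3.35) and with BMS961 (3.62).

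Of the genes that supply cholesterol to mitochondria, 13 of 15 were measured, and their median late difference was 0.27 with BMS961, 0.27 with BMS753, 0.13 with ATRA and 0.14 with BMS641. Lipe, the hormone-sensitive lipase that frees cholesterol from its esters, rose late with BMS961 by 0.80 ± 0.13 (1.74-fold, adjusted p = 0.0125) and with BMS753 by 0.93 ± 0.13 (1.91-fold, adjusted p = 0.0367). Its levels at 2, 6, 24 and 48 h were 7.56, 7.10, 6.61 and 6.63 with ATRA and 7.38, 6.99, 7.13 and 7.04 with BMS961. BMS753 gave 7.08, 6.92, 7.15 and 7.27 and BMS641 gave 7.06, 6.70, 6.75 and 6.72. On the vehicle arrays Lipe had 6.12 and 6.44, so every retinoid array lay above both, as for 0.637% of all genes. Early, it rose with ATRA by 1.05 (adjusted p = 0.00259) and with BMS961 by 0.91 (adjusted p = 0.0474), in comparisons that called 0.853% and 0.0351% of all genes higher. Blocked on the array set the early BMS961 value was 0.75, no longer called (adjusted p = 0.115). Against BMS641 at late times Lipe differed by 0.35 with BMS961, not at a matched dose (adjusted p = 0.313), and by 0.48 with BMS753 (adjusted p = 0.707). The late calls for Lipe were lost without either late array of the same compound, with arrays centred on their median and without common steps, and that with BMS753 also with quantile normalization. Npc1, which moves cholesterol out of lysosomes, rose with late ATRA by 0.76 ± 0.17 (adjusted p = 0.0317), a call lost without the 48 h ATRA array, without vehicle replicate 2, with centred arrays and when blocked on the array set (0.61, adjusted p = 0.238). Stard4 and Dbi, a cholesterol transfer protein and a peptide that stimulates mitochondrial cholesterol import, had 0.82 and 0.81 with late BMS961 (adjusted p = 0.399 and 0.227), and the vehicle arrays differed by over 1 log2 unit for each. Tspo, an outer mitochondrial membrane protein linked to cholesterol import, had 0.26 with late BMS961 and 0.10 with late ATRA (adjusted p = 0.769 and 0.866).

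Transcription regulators of steroidogenic genes were measured for 24 of 25. Called late against vehicle were 2 with BMS961 (8.33%, against 1.26% of all genes) and 4 with ATRA (16.7%, against 4.71%). With BMS753 0 were called (against 0.186%), and 0 with BMS641, as over all genes. At unadjusted p under 0.05 were 4 with BMS753 and 2 with BMS641, beside 1741 and 916 of all 19938 genes. Blocked on the array set, Cited2, a transcriptional cofactor, was also called with BMS961, at 0.84 (adjusted p = 0.0471), against 0.42 without the block (adjusted p = 0.598). Nr5a1, the receptor that drives Cyp11a1 in adrenal and gonadal cells, fell with BMS961 and ATRA at late times, when Cyp11a1 was high. Its levels at 2, 6, 24 and 48 h were 7.16, 7.24, 6.99 and 6.29 with ATRA and 7.73, 7.04, 6.74 and 6.48 with BMS961. BMS753 gave 7.91, 7.40, 7.24 and 7.28 and BMS641 gave 7.97, 7.86, 7.66 and 7.86, against 8.06 and 7.83 on the vehicle arrays. All ATRA and BMS961 arrays, the BMS753 arrays from 6 h on and the BMS641 array at 24 h lay below both vehicle arrays. Of all genes 6.59% lay below both on every ATRA array, 3.98% on every BMS961 array, 10.2% on the BMS753 arrays from 6 h on and 24.2% on the BMS641 array at 24 h. Late minus vehicle it fell by 1.34 ± 0.22 with BMS961 (adjusted p = 0.0131) and by 1.30 ± 0.22 with ATRA (adjusted p = 0.00986), and had -0.68 ± 0.22 with BMS753 (adjusted p = 0.368). Against BMS641 late it differed by -1.15 with BMS961, not at a matched dose, and by -1.12 with ATRA (adjusted p = 0.0348 and 0.00858). Blocked on the array set the ATRA minus BMS641 value was no smaller, at -1.34, but no longer called (adjusted p = 0.446). The calls against vehicle were lost without the 24 h or the 48 h BMS961 array, and without the 48 h ATRA array.

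Gata6, a zinc finger factor of primitive endoderm that can also activate steroidogenic promoters, rose late with ATRA by 3.35 ± 0.51 (adjusted p = 0.00566) and with BMS961 by 3.62 ± 0.51 (adjusted p = 0.00629). It had 8.41, 7.83, 8.52 and 11.30 with ATRA and 6.69, 7.25, 9.42 and 10.93 with BMS961. BMS753 gave 6.35, 6.60, 7.41 and 8.03 and BMS641 gave 6.05, 6.16, 6.21 and 6.40, against 7.08 and 6.03 on the vehicle arrays. Every ATRA array, the BMS961 arrays from 6 h on and the late BMS753 arrays lay above both vehicle arrays. Of all genes 5.8% did so on every ATRA array, 8.37% on the BMS961 arrays from 6 h on and 19.9% on the late BMS753 arrays. Cyp11a1 also lay above both on these arrays, and in addition on the late BMS641 arrays, where Gata6 lay between the vehicle arrays. Against BMS641 late, Gata6 was higher by 3.87 with BMS961, not at a matched dose, and by 3.61 with ATRA (adjusted p = 0.00503 and 0.00248), where 1.19% and 14.8% of all genes were called in either direction. The late BMS753 value was 1.17 ± 0.51 (adjusted p = 0.545). Blocked on the array set, Gata6 had 4.14 with BMS961 (adjusted p = 0.00269) and 2.83 with ATRA, no longer called (adjusted p = 0.0521). Blocked ATRA minus BMS641, which runs through the single vehicle arrays, was 2.56 and also no longer called (adjusted p = 0.549). The ATRA call was also lost without vehicle replicate 2 and without the 48 h ATRA array, and the BMS961 call without either late BMS961 array. Gata4, its relative in gonads and endoderm, rose with late ATRA by 2.03 ± 0.44 (adjusted p = 0.0256), and its GATA cofactor Zfpm1 by 1.04 ± 0.21 (adjusted p = 0.0187). Both calls were lost when blocked on the array set (1.54 and 0.94, adjusted p = 0.215 and 0.14), without vehicle replicate 2 and without the 48 h ATRA array, and that of Gata4 also without common steps. With BMS961 Gata4 had 7.09 at 24 h and 9.17 at 48 h, against 7.26 and 6.28 on the vehicle arrays (late 1.36, adjusted p = 0.204). Wt1, a zinc finger factor of the gonad, rose early with ATRA by 1.62 (adjusted p = 0.00321), where 0.853% of all genes were called higher. It had 7.65, 7.41, 6.39 and 6.97 with ATRA and 6.27, 6.67, 6.72 and 6.92 with BMS641, against 5.95 and 5.87 on the vehicle arrays. Every array of the 4 retinoids lay above both vehicle arrays, as for 0.637% of all genes.

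Nr0b1, a repressor of NR5A receptors that is abundant in pluripotent cells, was below both vehicle arrays with ATRA at 48 h and with BMS961 at 24 and 48 h, as were 42.2% of all genes with ATRA at 48 h and 15.0% with both late BMS961 arrays. It was at 11.18 with ATRA at 48 h and at 11.87 and 11.49 with BMS961 at 24 and 48 h, against 12.84 and 12.35 on the vehicle arrays. Late differences were -0.91 with BMS961 and -0.68 with ATRA (adjusted p = 0.194 and 0.21), and neither was called.

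**Figure D4:**
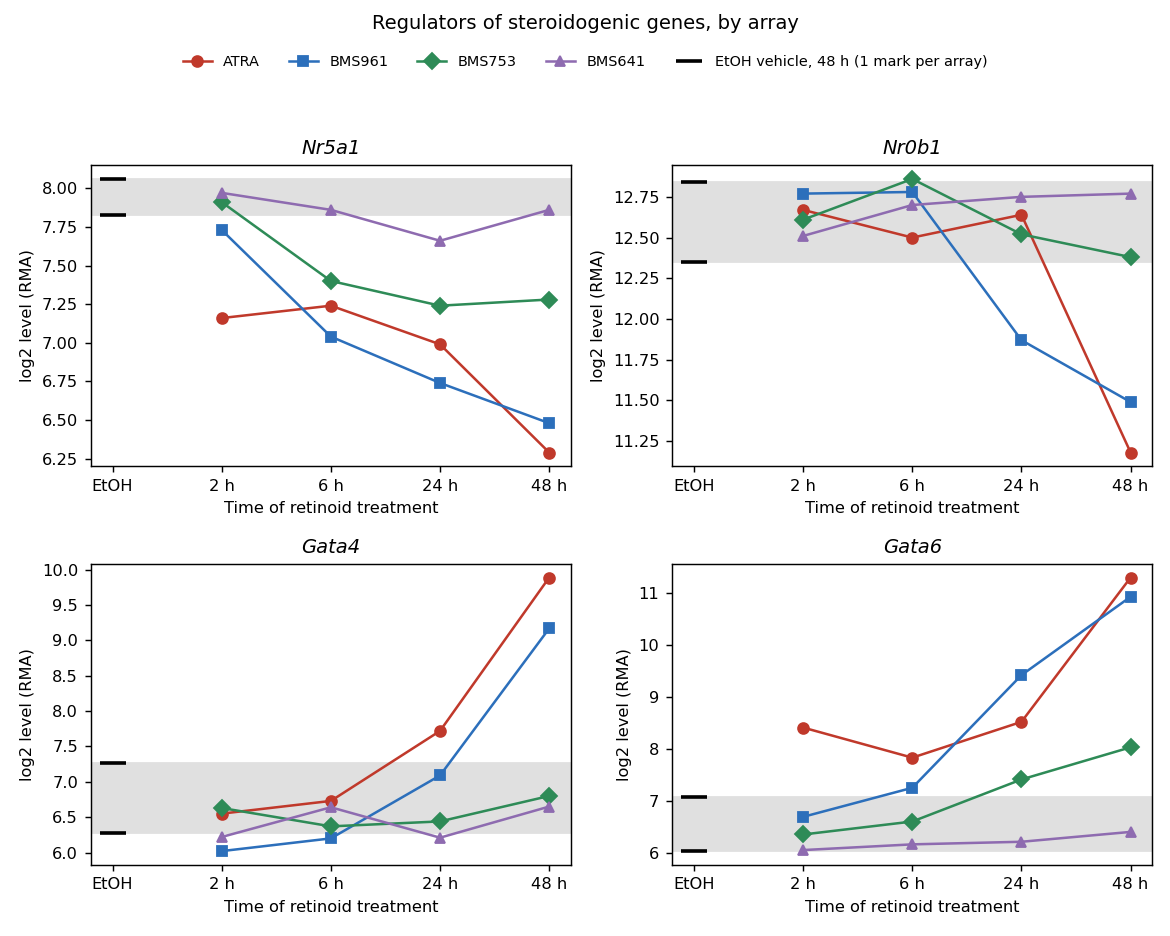
Log2 level of Nr5a1, Nr0b1, Gata4 and Gata6 by array (y axis) against the time of retinoid treatment (x axis), with 1 point per array and a grey band between the vehicle arrays at 48 h. Nr5a1 lies below both vehicle arrays on all ATRA arrays, Gata6 above both, and the BMS641 points of Gata6 stay between 6.05 and 6.40.

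The genes whose levels followed Cyp11a1 most closely were ranked by Pearson r over the 18 arrays, among 4306 genes with a range of at least 1 log2 unit. These coefficients are descriptions over arrays that share the vehicle pair and the array sets. Highest were Myo1e, a membrane-binding myosin (r = 0.94, rho = 0.92), Abat, which breaks down the transmitter GABA (0.93, 0.89), Ttc39c (0.92, 0.91) and Kyat3, an aminotransferase of the kynurenine pathway (0.92, 0.91). Next came the actin-binding Cotl1 (0.92, 0.87), the stress-response gene Sesn1 (0.91, 0.92), Phactr2 (0.91, 0.91) and the receptor phosphatase Ptpru (0.91, 0.89). As an example, Cotl1 had 8.64, 8.82, 8.89 and 9.03 with ATRA and 7.49, 8.06, 9.07 and 8.67 with BMS961. BMS753 gave 7.33, 7.70, 8.34 and 8.58 and BMS641 gave 7.24, 7.19, 7.36 and 7.43, against 7.48 and 7.19 on the vehicle arrays. Lowest were Dnmt3l, a cofactor of DNA methylation (r = -0.92, rho = -0.91), the nucleotide transporter Slc17a9 (-0.91, -0.92), the kinase Sgk3 (-0.91, -0.91) and the zinc finger gene Zbtb7b (-0.91, -0.91). Dnmt3l had 7.01, 7.35, 7.41 and 7.66 with ATRA and 7.73 and 7.01 on the late BMS961 arrays, against 9.03 and 10.49 on the vehicle arrays.

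**Figure D5:**
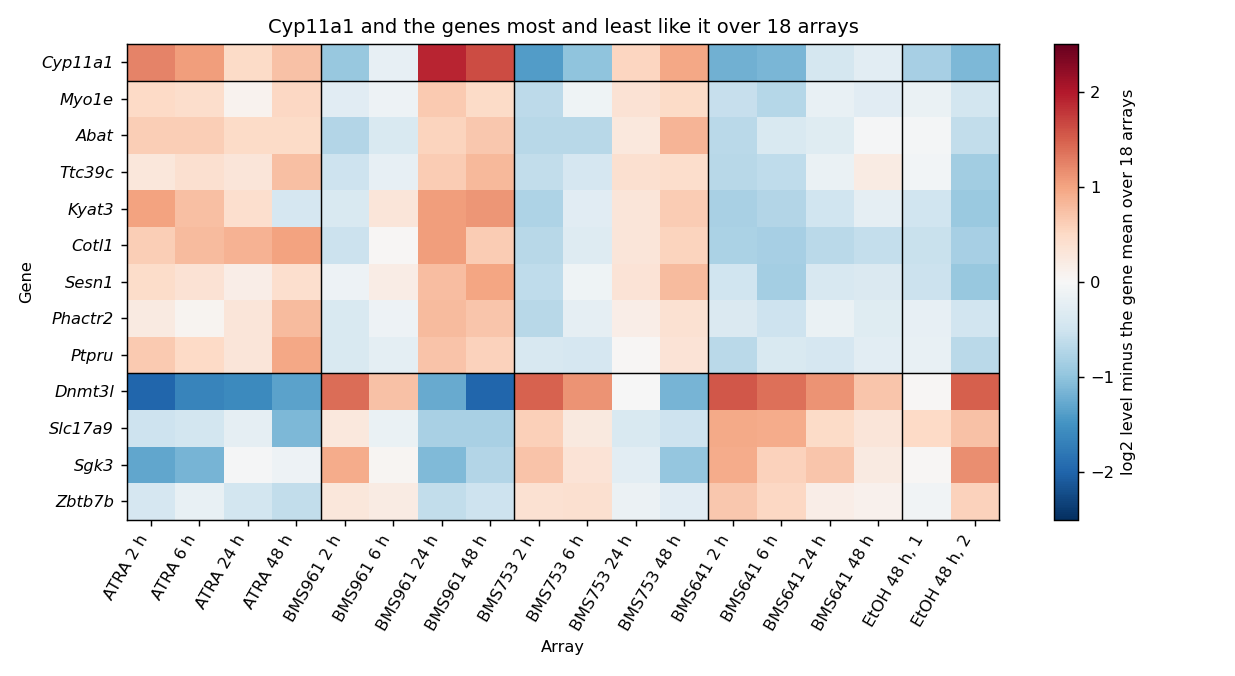
Log2 level by array of the genes with the highest and lowest Pearson r with Cyp11a1, with colours for the deviation in log2 units from the gene's own mean over the 18 arrays (rows are genes, columns are arrays). The 8 highest genes are above their means on the ATRA arrays and the late BMS961 and BMS753 arrays, except Kyat3 with ATRA at 48 h (8.32), and the 4 lowest are at or below theirs.

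Among the members, Fdx1 had r = 0.61 and rho = 0.45 with Cyp11a1 over the 18 arrays. Without the 2 arrays farthest from the median of Cyp11a1 the r of Fdx1 was 0.42, and over the 13 arrays other than ATRA and vehicle replicate 1 it was 0.86. Nr5a2 had r = -0.66 and rho = -0.79, and Star r = -0.32 and rho = -0.33. Without the 2 farthest arrays Nr5a2 had r = -0.73 and Star r = -0.28, and over the 13 arrays they had -0.86 and -0.38. Of the regulators, Gata6 had r = 0.81 (rank 123 of 4306, 0.74 without the 2 farthest arrays) and Nr5a1 r = -0.81 (rank 4238, and -0.74). Over the 13 arrays Gata6 had 0.9 and Nr5a1 -0.88, so the rise seen for Fdx1 was not particular to it.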

How the data were processed

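Total RNA of F9 cells was measured on 18 biotin-labelled whole-transcript arrays. Per the submitters' processing notes, the authors used Affymetrix Expression Console 1.1 and RMA, and the deposited values are log2 levels per probe set. The sources used here do not give which arrays were normalized together, nor detection calls. The values, 2.05 to 14.36, were used without further scaling.

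Of 35556 probe sets, 21789 had 1 gene symbol in the platform annotation, 1621 had several and 12146 were not listed. A gene took its probe set of highest mean level (999 genes had more than 1), and 19938 genes resulted, dim ones kept. Symbols were updated through Entrez numbers, which matched 21698 probe sets. Of the 5 members, Fdxr had no listed probe set. The members, the 4 pathway lists, the marker lists and the tests were chosen with earlier results of these data known.

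Groups follow the agent and time in the labels. A linear model with 9 group means, 1 for vehicle and the rest for early or late arrays of a retinoid, and shared steps between 2 and 6 h and between 24 and 48 h, was estimated over the 18 arrays in limma 3.58.1 (R 4.3.3). Residual degrees of freedom were 7 and the eBayes prior 4.55. A gene was called where its p, adjusted by Benjamini-Hochberg over all genes of that comparison, was under 0.05. Members in the comparisons of BMS961 or BMS753 with vehicle or BMS641, and Cyp11a1 throughout, have no p because these values chose them. For Fdx1, Star and Nr5a2 the ATRA minus BMS753 comparison kept its p, although it uses the same BMS753 arrays. On simulated data for BMS961 late against vehicle with 19938 genes, the fit recovered 92.5% of genes changed by 2-fold, 100% by 4-fold and 100% by 8-fold, and made 13 false calls. The simulated noise was independent between arrays, with no difference between array sets, so these shares do not describe recovery in the real data. Named genes were the members, called or otherwise largest list genes, and the 8 highest and 4 lowest by Pearson r with Cyp11a1. Motifs were searched on both strands of RefSeq windows. Alternatives were quantile normalization, median centring, dim genes left out, mean of probe sets, eBayes with trend, no common steps, the array set as a block, late and vehicle arrays only, leaving out single arrays, other folds and other measures of likeness. Tables and figures were made with Python 3.11.15. Nothing was left out of the 18 arrays.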

Additional observations from a re-analysis of the deposited data

Results flagged for a closer look

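The difference in Cyp11a1 level between ATRA and BMS961, which were not at a matched dose, lay on opposite sides at early and late times. It was 1.73 early and -1.18 late, with both arrays of each phase on the same side, a shift of -2.91 that was not tested. Between ATRA and BMS753 the early arrays differed by 2.34 and the late arrays by -0.15, a shift of -2.48 that was not tested either. The late differences, -0.06 at 24 h and -0.24 at 48 h, were smaller than the 0.29 between the vehicle arrays. For BMS641 against vehicle the early arrays were below both vehicle arrays (-0.20) and the late arrays above both (0.61), positions that 11.3% and 18.7% of all genes had on both arrays, a shift of 0.81, also not tested. Cyp11a1 was chosen with these levels known, and each value rests on 1 array per retinoid and time.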

How the results depend on the processing

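No paired analysis was possible because only the vehicle arrays carry replicate numbers. Called pathway genes late against vehicle, 3 with BMS961, 1 with BMS753, 5 with ATRA and 0 with BMS641, numbered 0 with each of BMS961, BMS753 and ATRA when only late and vehicle arrays were fitted. With the array set as a block they were 5 with BMS961, among them Akr1c18 and Cited2, and 1 with ATRA. With BMS753 the count was 0 after quantile normalization, with centred arrays, without common steps and at a minimum of 2-fold. No share of all genes was counted for these alternatives or for the fits without single arrays, so their counts stand without a reading. Leaving out single arrays gave 0 to 8 genes with BMS961, 0 to 7 with BMS753, 0 to 16 with ATRA and 0 to 6 with BMS641. The highest counts were without vehicle replicate 1 for ATRA and without vehicle replicate 2 for the BMS compounds, and 9 genes were called with ATRA without its 24 h array. Cyp11a1 late ranged from 2.46 to 3.03 with BMS961 minus vehicle and from 1.85 to 2.41 with BMS961 minus BMS641 when single arrays were left out. With BMS753 it ranged from 1.53 to 1.90 and from 0.92 to 1.29. Cyp11a1 was past 3-fold above both vehicle arrays on 5 retinoid arrays, against 8 past 2-fold. Of the 8 genes most like it, 4 were also among the 8 highest by Spearman rho, and 1 by r over the 13 arrays other than ATRA and vehicle replicate 1. No direction of a called value was reversed. Of the values for single members, 9 calls were lost under an alternative and 1 was gained, all given above except Nr5a2 with late and vehicle arrays only (adjusted p = 0.0735 for ATRA minus vehicle and 0.083 for ATRA minus BMS753). Signal over background limits Star and the dim enzymes, and no detection call was used.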
